A study of Felis catus with 12 samples.

Results

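The dystrophin-glycoprotein complex links the actin cytoskeleton of a muscle cell to the laminin of its basement membrane. The genes described here were 8 rows of the deposited table, chosen by name: DMD, UTRN, DAG1, SGCA, SGCB, SGCD, DTNA and LAMA2. They stood among 30785 genes listed, and all 8 passed the filter on low values that 8715 genes passed. The samples were 12 left ventricular libraries of domestic cats (Felis catus), 1 per cat, from heart tissue taken post-mortem and sequenced as native RNA on Oxford Nanopore flow cells. The labels gave a cat number, a barcode and a flow cell, and 4 libraries shared each flow cell: cats 11, 23, 30 and 31 on PAK20671, cats 10, 15, 35 and 36 on PAM73681, and cats 22, 29, 37 and 38 on PAM73696. The labels gave no disease group, treatment, breed or age, so the flow cell was the only group they defined. Outcome, sex and breed are given by the study outside the labels and formed no comparison here, and the cats it lists without a cardiac death were both on flow cells other than PAK20671. Flow cells held different cats, so a difference between flow cells and a difference between those cats cannot be told apart. Besides its comparison of clinical outcomes, the study related expression to tissue traits. The 8 genes were therefore also set against myocardial fibrosis, age and adipocyte percentage, for the cats whose number was in the study's list of sequenced cats. The libraries labelled cats 22 and 29 were not in that list and entered no comparison of a trait, apart from a named alternative.

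Dystrophin, the product of DMD, binds cytoskeletal actin at one end and β-dystroglycan at the other, and utrophin, the product of UTRN, is its close homologue. DAG1 encodes both dystroglycan chains, of which the outer one binds laminin through its sugar chains, and LAMA2 encodes the laminin α2 chain that it binds in muscle. The sarcoglycans, here SGCA, SGCB and SGCD, form a subcomplex in the membrane beside dystroglycan, and α-dystrobrevin, the product of DTNA, binds dystrophin and the syntrophins inside the cell. Loss of several of these proteins is known to cause muscular dystrophy or cardiomyopathy.

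Between 789257 and 2263110 reads per library fell on genes, a 2.87-fold span, and between 12189 and 13987 genes had a read. The values given below are the deposited ones, reads divided by 1 size factor per library. Their cardiac origin was checked with markers: 9 of 10 cardiomyocyte markers had a row and accounted, as a sum, for 10.2% to 15.7% of each library's reads, whereas the 4 skeletal muscle markers with a row summed to a value of 5.58 at most. No gene lengths of the build used were at hand, so levels were compared between libraries and never between genes.

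All 8 genes were detected in all 12 libraries. Their reads together made up 0.109% to 0.158% of the reads on genes, with a median of 0.130%. Between libraries the coefficients of variation of the 8 genes had a median of 30.3%, beside 40.0% over all tested genes. This is a description that was not tested, and the genes were not matched for read count, on which counting error depends. Counting error alone would give 21.0% for DMD, which rested on 11 to 44 reads per library, and 4.32% for LAMA2, which rested on 368 to 873.

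DMD, the cytoskeletal link of the complex, had values of 13.6 in cat 31, 14.8 in cat 23, 14.96 in cat 11 and 27.8 in cat 30 on PAK20671. On PAM73681 it was 18.04 in cat 10, 27.2 in cat 15, 32.9 in cat 36 and 34.7 in cat 35. On PAM73696 it was 17.7 in cat 29, 22.9 in cat 37, 25.7 in cat 38 and 28.4 in cat 22. The 3 lowest libraries were all on PAK20671, but cat 30 of the same flow cell was the fourth highest of all, and all 3 flow cells overlapped. The highest library was 2.56-fold above the lowest, and the coefficient of variation of 31.4% was 1.5 times that of counting error.

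UTRN was 35.7 in cat 11, 47.9 in cat 31, 61.4 in cat 30 and 69.8 in cat 23 on PAK20671. It was 50.8 in cat 36, 52.8 in cat 35, 57.2 in cat 15 and 71.0 in cat 10 on PAM73681, and 41.0 in cat 29, 61.8 in cat 38, 78.7 in cat 37 and 86.4 in cat 22 on PAM73696. Its lowest and highest libraries were cats 11 and 22, and the ranges of the flow cells overlapped. UTRN was lower in the deeper libraries (12 libraries, Spearman's rho = -0.748, permutation p = 0.00746; Pearson's r = -0.777, permutation p = 0.0033), with r = -0.758 after centring each flow cell and r = -0.641 without cats 11 and 36. This was 1 of 40 relations of the 8 genes with depth and with 4 marker sums, and its adjusted p was 0.0726.

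DAG1 was 149 in cat 23, 196 in cat 30, 210 in cat 31 and 233 in cat 11 on PAK20671. It was 136 in cat 15, 138 in cat 10, 142 in cat 36 and 153 in cat 35 on PAM73681, and 101 in cat 38, 111 in cat 22, 117 in cat 29 and 199 in cat 37 on PAM73696. The 4 libraries of PAM73681 were close together, with a mean of 142 ± 7.56 (SD, n = 4). Cat 37 stood well above the rest of its flow cell and within the range of PAK20671.

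LAMA2 was 380 in cat 11, 432 in cat 31, 448 in cat 30 and 668 in cat 23 on PAK20671. It was 454 in cat 35, 663 in cat 10, 777 in cat 36 and 948 in cat 15 on PAM73681. On PAM73696 it was 484 in cat 38, 493 in cat 29, 497 in cat 22 and 631 in cat 37. Cats 15 and 36 were the 2 highest libraries and cat 11 the lowest, and the flow cells overlapped.

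SGCA, the α-sarcoglycan gene, was 153 in cat 11, 162 in cat 30, 175 in cat 31 and 196 in cat 23 on PAK20671. It was 239 in cat 35, 273 in cat 10, 426 in cat 36 and 464 in cat 15 on PAM73681, and 224 in cat 22, 245 in cat 37, 287 in cat 38 and 326 in cat 29 on PAM73696. The 4 libraries of PAK20671 were the 4 lowest of the 12, with no overlap, and cats 15 and 36 were again the 2 highest.

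SGCB, the β-sarcoglycan gene, was 56.0 in cat 11, 68.6 in cat 31, 108 in cat 30 and 111 in cat 23 on PAK20671. It was 90.8 in cat 36, 112 in cat 10 and 133 in both cats 15 and 35 on PAM73681, and 71.5 in cat 37, 80.9 in cat 29, 90.5 in cat 22 and 110 in cat 38 on PAM73696. All 3 flow cells overlapped.

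SGCD, the δ-sarcoglycan gene, had the widest spread of the 8, with a coefficient of variation of 53.5% and a 3.96-fold span, on 12 to 72 reads per library. It was 17.4 in cat 11, 17.5 in cat 23, 21.9 in cat 30 and 35.1 in cat 31 on PAK20671. It was 45.7 in cat 35, 46.2 in cat 10, 61.3 in cat 15 and 64.1 in cat 36 on PAM73681, and 16.2 in cat 22, 17.2 in cat 37, 19.1 in cat 38 and 35.5 in cat 29 on PAM73696. The 4 libraries of PAM73681 were the 4 highest of the 12.

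DTNA was 356 in cat 30, 416 in cat 23, 429 in cat 11 and 587 in cat 31 on PAK20671. It was 270 in cat 15, 273 in cat 10, 467 in cat 35 and 765 in cat 36 on PAM73681, and 239 in cat 22, 322 in cat 37, 371 in cat 29 and 479 in cat 38 on PAM73696. PAM73681 held both the highest library and 2 of the 3 lowest. The coefficient of variation of 36.03% was 7.46 times that of counting error.

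**Figure D1:**
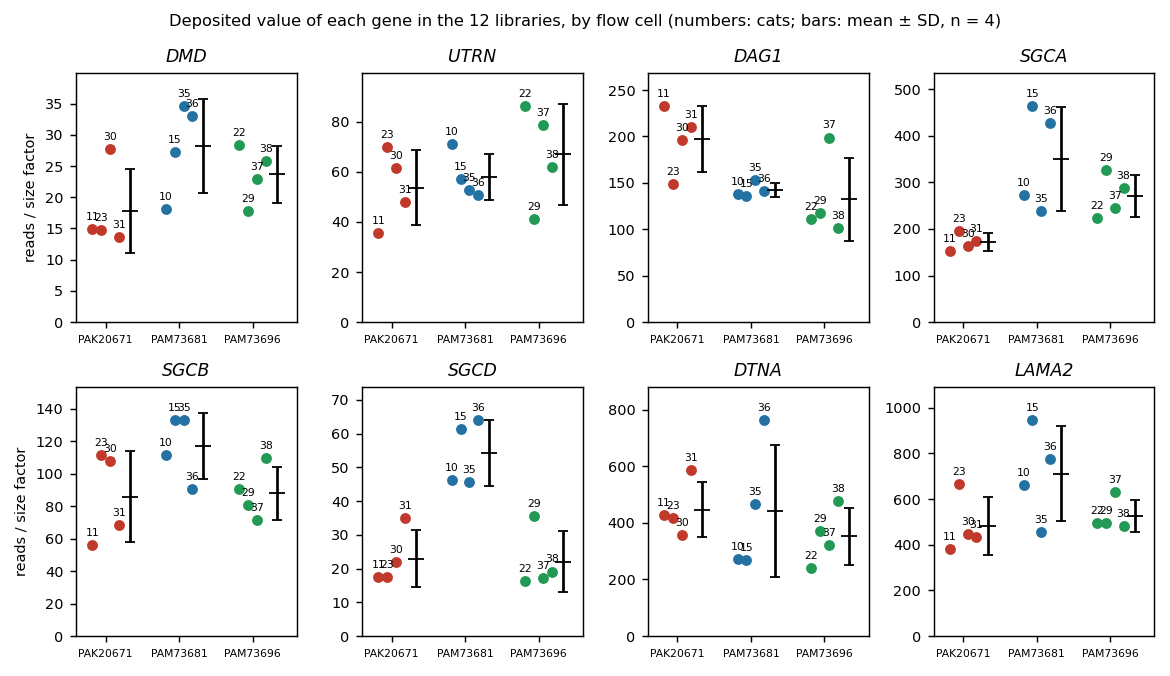
Deposited values (reads divided by the size factor, vertical axes from 0) of the 8 genes in the 12 libraries, with 1 point per cat and 1 colour per flow cell, and black bars for the mean ± SD of the 4 libraries. SGCA lies at 153 to 196 on PAK20671 and at 224 to 464 elsewhere, and SGCD lies at 45.7 to 64.1 on PAM73681 and at 16.2 to 35.5 elsewhere.

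Between PAK20671 and the other two flow cells, only SGCA differed among the 8 genes. It averaged 171 ± 18.8 (SD, n = 4) on PAK20671 and 310 ± 89.7 (SD, n = 8) elsewhere, a difference of -0.81 on the log2(value + 1) scale (SE 0.21, limma, adjusted p = 0.0331). Over all tested genes the same test called 475, or 5.45%, of which 315 were lower and 160 higher on PAK20671, so that 1 call among 8 genes is not far from the background. The ranges did not overlap for 1 of the 8 genes, SGCA, and for 4.23% of all tested genes. At an unadjusted p under 0.05 the genes were SGCA, DAG1 and SGCD, 3 of 8, beside 22% of all tested genes. Of the 8 genes, 6 were lower on PAK20671 than over the other two flow cells together, beside 47.6% of all tested genes. The median log2 difference of the 8 was -0.31, while that of all tested genes was 0.03.

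The SGCA call depended on the scaling and on which libraries entered. It was lost when libraries were scaled by their total reads on genes (log2 difference -0.60, limma adjusted p = 0.0645), a scaling that moved the median of all tested genes to 0.23 and the share of calls that were lower from 66.3% to 29.9%. It was also lost without cats 22 and 29 (-0.80, limma adjusted p = 0.0693) and in 7 of the 12 fits that left out 1 library, those without cat 11, 15, 29, 30, 31, 36 or 38, where the limma adjusted p was 0.0535 to 0.130. The direction was the same in each of these fits.

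The other 7 genes did not pass the adjusted test. DAG1 averaged 197 ± 35.4 (SD, n = 4) on PAK20671 and 137 ± 30.3 (SD, n = 8) elsewhere, with a log2 difference of 0.53 (95% interval 0.10 to 0.96, limma adjusted p = 0.138). SGCD had a log2 difference of -0.59 (95% interval -1.17 to -0.01, limma adjusted p = 0.224), and DMD one of -0.54 (95% interval -1.13 to 0.04, limma adjusted p = 0.260). For LAMA2, SGCB, UTRN and DTNA the log2 differences were -0.35, -0.28, -0.22 and 0.24, and the limma adjusted p was 0.354 to 0.642. Among the sarcoglycans, the 95% interval of SGCB, -0.76 to 0.20, overlapped that of SGCA, -1.25 to -0.38, and the difference between these genes was not tested.

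**Figure D2:**
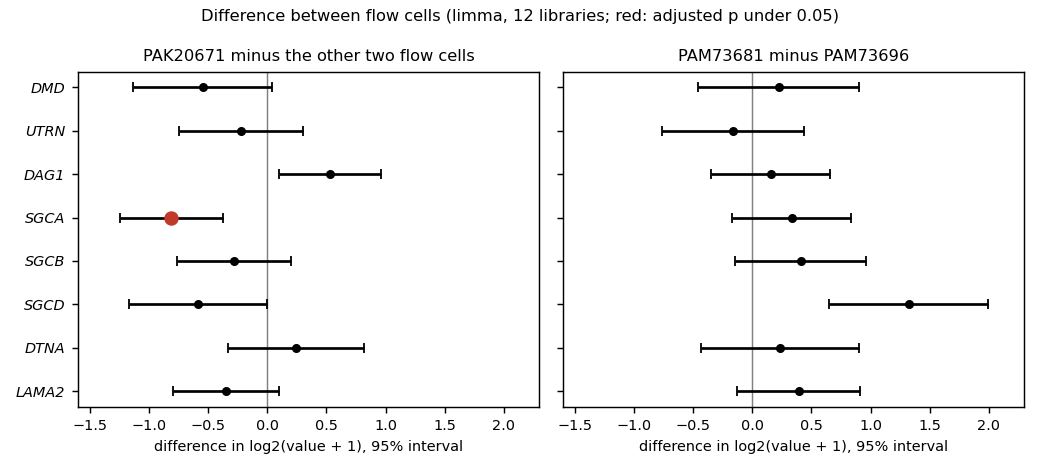
Differences in log2(value + 1) of the 8 genes between PAK20671 and the other two flow cells (left) and between PAM73681 and PAM73696 (right), with 95% intervals from the limma fit of 12 libraries and red for an adjusted p under 0.05. SGCA at -0.81 is the only red point, and SGCD lies at 1.32 on the right.

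Some markers of other cell types moved with the same split. On PAK20671, 4 of 8 fibroblast markers were called higher. Their log2 differences were 2.63 for COL1A1, 1.84 for COL3A1, 2.00 for COL1A2 and 2.71 for POSTN (limma adjusted p = 0.00232 to 0.0209). FBLN1 alone of the list was lower, at -0.51 (limma adjusted p = 0.463). The 8 summed values were 1256 to 3471 against 359 to 1931 elsewhere. Of the 5 smooth muscle and pericyte markers tested, 2 were called higher, CNN1 by 5.90 and TAGLN by 2.63 (limma adjusted p = 0.00232 and 0.00759). ACTA2 at 0.36, PDGFRB at 0.43 and RGS5 at 0.03 were not called (limma adjusted p = 0.453 to 0.973), and MYH11 was not tested. That list summed to 443 to 1334 against 129 to 363. Within it, TAGLN (188 to 744 against 28.6 to 134) and CNN1 (47.1 to 439 against 0 to 19.2) did not overlap. The ranges of ACTA2, PDGFRB and RGS5 did, so the sum is no even measure of these cells. Of the 9 cardiomyocyte markers tested, 4 were called lower. Their log2 differences were -1.05 for TNNT2, -1.11 for MYL3, -1.64 for TNNI3 and -1.99 for MYH6 (limma adjusted p = 0.00967 to 0.0450). The rest were not called, and of these ACTC1 at 0.59 and TTN at 0.05 were higher. The list summed to 113461 to 185294 against 115910 to 241688. MYL2 was the largest part of that sum, at 80038 to 149212 on PAK20671 and 62266 to 165234 elsewhere. Its log2 difference was -0.16 (limma adjusted p = 0.792). No endothelial, leukocyte, adipocyte or Schwann cell marker was called, of which 6, 5, 1 and 1 were tested. In bulk tissue, fewer cells of a type and less RNA per cell cannot be told apart, and the part of these cell types in the SGCA difference was not tested.

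Both SGCA and the smooth muscle sum separated PAK20671 from the rest, so no uncentred coefficient over all 12 libraries is given. Theirs was the 1 relation of the 40 with an adjusted p under 0.05, and it was then examined within the other 8 libraries. There SGCA was lower where the smooth muscle sum was higher (Spearman's rho = -0.738, exact permutation p = 0.0458; Pearson's r = -0.753, exact permutation p = 0.0354), with r = -0.607 without cats 22 and 37. Over the 5 relations of SGCA computed within these libraries the adjusted p was 0.229. That adjustment does not cover the choice of this relation from the 40. After centring each flow cell over the 12 libraries, r was -0.546. With the fibroblast sum, rho was -0.429 (exact permutation p = 0.299). With the cardiomyocyte sum, of which MYL2 was the largest part, it was 0.190 (exact permutation p = 0.665). DAG1 was higher where the smooth muscle sum was higher over the 12 libraries (Spearman's rho = 0.783, permutation p = 0.00402, adjusted over the 40 relations p = 0.0581; Pearson's r = 0.762, permutation p = 0.00398). The permutations ignored flow cells. DAG1 on average and the sum were both higher on PAK20671, so these values take in that split. For DAG1, r was 0.529 without cats 11 and 31. After centring each flow cell it was 0.612, which was not tested. The part of the smooth muscle sum in the DAG1 difference was not tested.

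**Figure D3:**
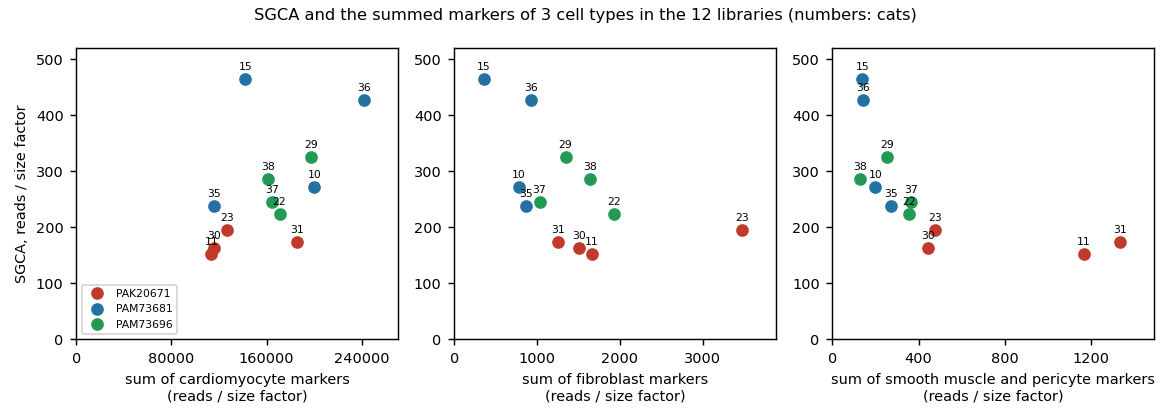
SGCA (vertical axes, reads divided by the size factor) against the summed values of cardiomyocyte, fibroblast and smooth muscle and pericyte markers (horizontal axes, same unit) in the 12 libraries, with 1 point per cat and 1 colour per flow cell. In the right panel PAK20671 takes the 4 lowest SGCA values and the 4 highest sums, 443 to 1334.

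Between PAM73681 and PAM73696, no gene of the 8 was called, as for all tested genes, of which 0 (0%) were called by limma and 7.87% had an unadjusted p under 0.05. edgeR called 0 genes and DESeq2 called 22, none of them among the 8. SGCD averaged 54.3 ± 9.73 (SD, n = 4) on PAM73681 and 21.99 ± 9.07 (SD, n = 4) on PAM73696, a 2.47-fold ratio of means. Its log2 difference was 1.32 (95% interval 0.65 to 1.99, limma unadjusted p = 7.17e-04, adjusted p = 0.260), and it was the only one of the 8 with an unadjusted p under 0.05. Its ranges did not overlap between these flow cells, which was so for 4.20% of all tested genes. Of the 8 genes, 7 were higher on PAM73681, and the exception was UTRN at -0.16. Over all tested genes, 49.8% were lower on PAM73681. The median log2 difference of the 8 was 0.28, beside 0.00 over all tested genes. The fibroblast markers were all lower on PAM73681, with summed values of 359 to 930 against 1029 to 1931, and none of them was called. Both SGCD and the fibroblast sum separated PAM73681 from all other libraries, so no uncentred coefficient over the 12 libraries is given. After centring each flow cell, Pearson's r between them was -0.417, which was not tested.

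The balance of DMD and UTRN does not depend on how a library was scaled, since both counts come from the same library. DMD had 0.212 to 0.657 reads for each read of UTRN, lowest in cat 23 with 11 and 52 reads and highest in cat 35 with 44 and 67. The ratio was 0.212, 0.283, 0.419 and 0.452 on PAK20671. On PAM73681 it was 0.254, 0.476, 0.649 and 0.657, and on PAM73696 it was 0.291, 0.328, 0.417 and 0.432. The flow cells overlapped, and the mean log2 ratio of PAK20671 was 0.33 below that of the other 8 libraries (log2 difference -0.33, two-sided exact permutation p = 0.269).

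Myocardial fibrosis, the share of fibrous tissue in the myocardium by digital pathology, was available for 8 of the cats. No tested gene passed adjustment over all genes (0 of 8715 by permutation of rho, and 0 by a limma slope). With 8 cats the smallest permutation p possible was 4.96e-05, so no single gene could pass that adjustment on its own. An unadjusted p under 0.05 was found for 2.83%. Among the 8 genes this was so for DMD. In order of rising fibrosis its values were 34.7, 27.8, 25.7, 32.9, 18.04, 14.96, 27.2 and 14.8, on 11 to 44 reads each. The 4 cats with less fibrosis lay at 25.7 or above, and of the 4 with more fibrosis only cat 15 did. Spearman's rho was -0.762 (exact permutation p = 0.0368, adjusted p = 1) and Pearson's r was -0.582 (exact permutation p = 0.132). Leaving out the extreme cats 15 and 23 gave r = -0.878, and after centring each flow cell, which left 7 cats, it was -0.618 (exact permutation p = 0.201). With cats 22 and 29 entered, rho was -0.564 (permutation p = 0.0987), and leaving out 1 cat at a time gave -0.893 to -0.643. Depth had a rho of -0.429 with fibrosis (exact permutation p = 0.299) and an r of -0.599 (exact permutation p = 0.121). DMD is listed in the supplementary results of the study within a gene set ranked by fibrosis in these cats, so this value is not independent evidence of a direction. For the other 7 genes rho was -0.429 to 0.476, and 4 of the 8 were negative, beside 48.5% of all tested genes.

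Age was available for 9 of the cats. Again 0 of 8715 genes passed adjustment, by rho or by a limma slope, and 4.76% had an unadjusted p under 0.05. Of the 8 genes this was so for DTNA. From the youngest cat to the oldest its values were 765, 587, 429, 479, 273, 322, 416, 270 and 356. The 4 youngest cats were all higher than the 5 oldest. Spearman's rho was -0.783 (exact permutation p = 0.0172, adjusted p = 0.851) and Pearson's r was -0.679 (exact permutation p = 0.0453). Without the pair of cats at the extremes, taken in 2 ways because cats 15 and 36 were equally far, r was -0.680 and -0.685, and after centring each flow cell it was -0.734 (exact permutation p = 0.0208). With cats 22 and 29 entered, rho was -0.582 (permutation p = 0.0646). Depth moved with both. Reads on genes had a rho of -0.700 with age (exact permutation p = 0.0433) and an r of -0.715 (exact permutation p = 0.0342), and the adjusted p over 15 relations of depth and marker sums with traits was 0.324. Over the 12 libraries DTNA had a rho of 0.734 with depth (permutation p = 0.00907, adjusted over the 40 relations p = 0.0726) and an r of 0.667 (permutation p = 0.0175), with r = 0.677 without cats 11 and 36 and 0.635 within flow cells. The part of depth in the relation with age was not tested. For the other 7 genes rho with age was -0.200 to 0.567. With libraries scaled by total reads, SGCB had a rho of 0.850 with age (exact permutation p = 0.00607, adjusted p = 0.546) and UTRN one of 0.733 (exact permutation p = 0.0311, adjusted p = 0.668), in place of 0.567 and 0.483, while DTNA kept a rho of -0.783.

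Adipocyte percentage was available for 10 of the cats, and 0 of 8715 genes passed adjustment by rho or by a limma slope, while 3.10% had an unadjusted p under 0.05. None of the 8 genes was among these. SGCD came closest: in order of rising adipocyte percentage its values were 45.7, 17.4, 17.2, 19.1, 21.9, 17.5, 46.2, 61.3, 35.1 and 64.1. Cat 35, with the lowest percentage, stood apart from the next 5, and the 4 cats with the highest percentages were all at 35.1 or above. Spearman's rho was 0.636 (permutation p = 0.0545, adjusted p = 1) and Pearson's r was 0.579 (permutation p = 0.0758), which became 0.343 without cats 31 and 36. After centring each flow cell r was 0.735 (exact permutation p = 0.00781). By the study's methods, the slides of cats 10, 15, 23, 30 and 36 were stained and scanned in a second batch and classified anew. These 5 cats were among the 6 with the highest percentages. After centring each staining batch, r of SGCD was 0.483 (exact permutation p = 0.211), and rho was -0.100 in the first batch and 0.900 in the second, with 5 cats each. The cardiomyocyte marker sum, of which MYL2 was the largest part, was also set against adipocyte percentage. Its rho was 0.733 (permutation p = 0.0206, adjusted over the 15 relations p = 0.309) and its r was 0.732 (permutation p = 0.0144). Its part in the SGCD value was not tested. For the other 7 genes rho was -0.309 to 0.503.

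**Figure D4:**
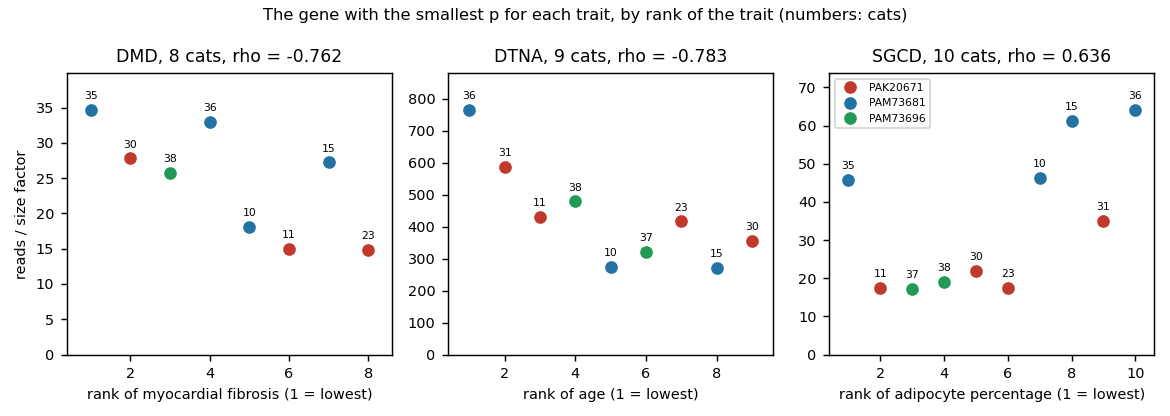
Deposited values (reads divided by the size factor) of DMD by rank of myocardial fibrosis in 8 cats, DTNA by rank of age in 9 cats and SGCD by rank of adipocyte percentage in 10 cats, rank 1 being the lowest and colours marking flow cells. DMD goes from 34.7 at the lowest fibrosis to 14.8 at the highest, DTNA from 765 in the youngest cat to 356 in the oldest, and SGCD from 45.7 to 64.1 with 5 of the cats between at 17.2 to 21.9.

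Across cats the pairs of the 8 genes had values of both signs. No background of pairs of other genes was computed. Counting error also enters these values, and the coefficient of variation of DMD was only 1.5 times that of counting error. Of the 28 pairs, 16 had a positive Spearman's rho over the 12 libraries, with a median of 0.224, and after centring each flow cell 14 were positive and the median was -0.0035. At an unadjusted p under 0.05 there were 4 pairs, and none passed adjustment over the 28. SGCA and LAMA2 went together (rho = 0.720, permutation p = 0.0106, adjusted p = 0.298; r = 0.766, permutation p = 0.0041). Without cats 15 and 36, r was 0.445. Within flow cells r was 0.695 and rho 0.490, and with libraries scaled by total reads rho was 0.434. SGCA and SGCD had a rho of 0.608 (permutation p = 0.0400, adjusted p = 0.314) and an r of 0.681 (permutation p = 0.0164), with r = 0.343 without cats 15 and 36 and 0.568 within flow cells. DAG1 and SGCA had opposite values (rho = -0.664, permutation p = 0.0222, adjusted p = 0.311; r = -0.614, permutation p = 0.0340), with r = -0.773 without cats 15 and 36 and -0.325 within flow cells. UTRN and DTNA had a rho of -0.594 (permutation p = 0.0448, adjusted p = 0.314) and an r of -0.530 (permutation p = 0.0763), with r = -0.414 without cats 22 and 36 and -0.472 within flow cells. DMD and UTRN, the homologues, had a rho of 0.224 (permutation p = 0.484), and SGCA and SGCB one of 0.448 (permutation p = 0.147).

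**Figure D5:**
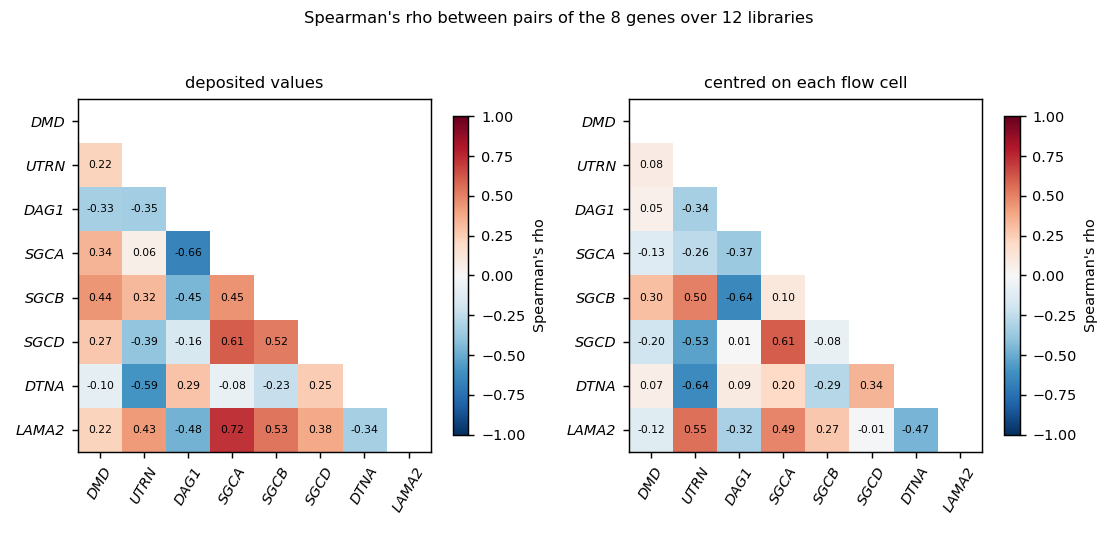
Spearman's rho for the 28 pairs of the 8 genes over 12 libraries, from the deposited values (left) and after centring each flow cell (right), with colours from -1 to 1. The extremes on the left are 0.72 for SGCA and LAMA2 and -0.66 for DAG1 and SGCA, which are 0.49 and -0.37 on the right.

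The tested genes most like DMD over the 12 libraries were DBI and MAP4K3, both with a rho of 0.881, and SMG5 with 0.846. Those most like LAMA2 were TRPT1 with a rho of 0.930, PCBD2 with 0.902 and SYNGR1 with 0.881. These are the highest of 8715 values over libraries that share flow cells, and within flow cells they ranged from 0.643 for SMG5 to 0.839 for DBI.

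The wider complex was taken from lists. Of 16 further subunits and partners, 9 were tested, and none was called between PAK20671 and the others or between PAM73681 and PAM73696. On PAK20671, 7 of the 9 were higher, while 47.6% of all tested genes were lower. The lower ones were CAV3 at -0.49 and SNTB1 at -0.15 (limma adjusted p = 0.178 and 0.781). The median log2 difference was 0.46, beside -0.31 for the 8 genes, and the difference between these lists was not tested. CAVIN1, which shapes caveolae, came closest (0.86, limma adjusted p = 0.0582). SGCE, the ε-sarcoglycan gene, had 0 to 39 reads, and SGCZ, SNTG1 and NOS1 had none in any library. SSPN, which encodes sarcospan, had a log2 difference of 0.49 (limma adjusted p = 0.277).

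Of 20 genes for the sugar chains by which dystroglycan binds laminin, DAG1 itself included, 12 were tested and none was called in either comparison, with a median log2 difference of 0.06 on PAK20671. Of this list, 4 genes stayed under 10 reads in all libraries. Of 14 basement membrane genes, among them LAMA2, 3 were higher on PAK20671, the collagen VI genes COL6A3 by 1.92, COL6A2 by 1.51 and COL6A1 by 1.46 (limma adjusted p = 0.0135 to 0.0193), and none was lower. Of 18 genes of the costamere and the integrin linkage, 2 were higher: VCL, which encodes vinculin, by 0.98, and the integrin β1 gene ITGB1 by 0.93 (limma adjusted p = 0.0442 and 0.0301). Of the 9 membrane repair genes tested, ANXA2 was higher by 1.57 and ANXA5 by 1.49 (limma adjusted p = 0.0159 and 0.0223). Among these lists none was called between PAM73681 and PAM73696, and fibroblasts and vessel cells also express the collagen, annexin and integrin genes named.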

How the data were processed

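Native RNA of 12 cat left ventricles was sequenced by the authors with the SQK-RNA002 kit. Bases were called with Guppy, reads were filtered on quality, mapped with Minimap2 to felCat9 and counted per gene with FeatureCounts. In the file the authors deposited, each signal value is a gene's read count over the size factor of its library. The methods do not name this division. All values (100%) were whole multiples of 1 read at a relative tolerance of 1e-06, so whole reads were recovered, and recomputed median-of-ratios factors differed by 2.89e-15 at most.

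A gene was tested if 3 or more of the 10 libraries in the study's list held 10 or more of its reads (8715 genes). Flow cells were compared with limma 3.58.1 (R 4.3.3) on log2(value + 1) with an intensity trend over all tested genes, so fold changes of low genes are understated. Traits, copied from the study's cohort table by cat number, entered Spearman's rho, with p-values (two-sided) from all orders of the cats, or 100000 random permutations for 10 or more cats or libraries. Pearson's r was taken on log2(value + 1). Adjusted p-values are Benjamini-Hochberg. edgeR 4.0.16 and DESeq2 1.42.0 on the recovered reads, other scalings, pseudocounts and filters, and leaving out libraries were the alternatives.

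Members and lists were chosen with earlier results of these data known. The relations with depth and marker sums, and the centring on staining batches, were added after seeing the data. Named genes were the 8, up to 4 called genes per list by adjusted p, and the 3 most alike to DMD and LAMA2. Other genes named were chosen after their values were seen. The older symbols ISPD and TMEM5 stood for 2 genes of the sugar chain list. Nothing says that libraries are more than 1 sample per cat, so spread includes differences between cats and counting error. On simulated data for PAK20671 against the others, limma recovered 10.5% of 200 changed genes of 8715 at a log2 size of 1, 75.5% at 2 and 92.5% at 3. For traits, simulations over the same 8715 genes gave 200 genes a log2 change of 3 over the range of the trait. The same spread setting was used for every gene. Of the changed genes, 0% passed adjustment for fibrosis, 5.5% for age and 0% for adipocyte percentage. At an unadjusted permutation p under 0.05 the shares were 87.5%, 95.0% and 84.0%. MYH7, ITGAM, FABP4, MYH1 and MYH2 were not analysed here. The values of some genes of the wider lists are not reported here.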

Additional observations from a re-analysis of the deposited data

Results flagged for a closer look

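Of 27 sets of 4 libraries of 1 flow cell examined, 4 had 1 library far from the others, where chance gives about 1 in 20. DMD in cat 30 was 27.8, while the other libraries of PAK20671 were at 13.6 to 14.96. On PAM73696, DAG1 in cat 37 was 199 against 101 to 117, LAMA2 in cat 37 was 631 against 484 to 497, and SGCD in cat 29 was 35.5 against 16.2 to 19.1. These 4 values rested on 33, 139, 441 and 32 reads.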

How the results depend on the processing

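Depth limits DMD and SGCD most. In the simulation of PAK20671 against the others, a log2 difference of 1 was mostly missed. That simulation drew 200 changed genes from all tested genes and does not give the share for the 8. In the real data SGCA was called at -0.81. For PAK20671 against the others, the number of the 8 genes called was 0 with total-read scaling and without cats 22 and 29, and 0 to 1 with 1 library left out. Over all tested genes, calls were 825 with DESeq2, 262 without cats 22 and 29, and 47 to 530 with 1 library left out, of which 47 without cat 11, 171 without cat 31 and 287 without cat 15. Calls that were lower made up 53.1% with edgeR and 57.6% with DESeq2. For PAM73681 against PAM73696, genes called were 1 with total-read scaling, 2 with a pseudocount of 5, 22 with DESeq2, 1 without cats 22 and 29, and 0 to 2 with 1 library left out. The log2 difference of DAG1 was -0.0024 without cats 22 and 29, and that of DTNA was -0.0728 to 0.428 with 1 library left out.

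For fibrosis, those of the 8 genes with an unadjusted p under 0.05 were 0 by Pearson's r, with cats 22 and 29, with total fibrosis and by the limma slope. For age they were 3 with total-read scaling (SGCB, UTRN and DTNA) and 0 with cats 22 and 29, and for adipocyte percentage 1 by the limma slope with or without flow cell. Leaving out 1 cat gave 0 to 1 for each trait, and 0 to 1 tested genes passing adjustment for adipocyte percentage.

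Signs turned only for values that had not passed a test. For fibrosis, rho was 0.119 for DAG1 and -0.381 for SGCB with total-read scaling, -0.0182 for SGCA and -0.00606 for SGCB with cats 22 and 29, and the limma slope of SGCD with flow cell was 7.66e-04. For age, DAG1 was 0.150 with total-read scaling, 0.0272 by Pearson's r, 0.0727 with cats 22 and 29 and 0.00189 by the limma slope, and SGCA was 0.100 with total-read scaling and 0.00385 by the slope with flow cell. For adipocyte percentage, DMD was 0.0351 by Pearson's r, 0.0140 with cats 22 and 29 and 0.00595 by the slope, UTRN was 0.161 with cats 22 and 29, and SGCB was -0.273 with total-read scaling, -0.0559 by Pearson's r, -0.00837 by the slope, -0.0359 by the slope with flow cell and -0.392 by r after centring each staining batch. With 1 cat left out, rho with fibrosis was -0.143 to 0.429 for UTRN, -0.393 to 0.0714 for DAG1, -0.214 to 0.321 for SGCA, -0.286 to 0.393 for SGCB and -0.429 to 0.179 for SGCD. With age it was -0.381 to 0 for DAG1, -0.310 to 0.238 for SGCA and -0.429 to 0.167 for SGCD, and with adipocyte percentage -0.433 to 0.167 for DMD, -0.483 to 0.0667 for UTRN, -0.200 to 0.300 for SGCB and -0.200 to 0.267 for DTNA. The causes were not tested. No paired analysis was possible because the flow cells share no replicate numbers.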
